A study of Homo sapiens with 12 samples.

Results

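The genes described here are the ligands and receptors of axon guidance: semaphorins, plexins, neuropilins, Eph receptors, ephrins, netrins, Slits and Robos. They were taken by symbol from a table of gene counts, and 64 of its 26364 genes matched. Of these, 47 had enough counts to be tested, among 14297 tested genes in all. The cells are A2058, an established human melanoma line, sequenced as bulk RNA in 12 libraries, 3 in each of 4 groups. One pair of groups was transduced with lentivirus made from the LVX vector, either empty or carrying MITF, and selected with puromycin. The other pair was transfected by lipofection for 48 hours, either with siRNA against MITF or with a scrambled siRNA. MITF is a transcription factor that governs the melanocyte lineage. Every group was thus transduced or transfected, and the control groups differ from each other in delivery and selection as well as in cargo.

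Guidance cues steer growing axons and migrating cells by attraction or repulsion. Semaphorins signal through plexins, and most secreted semaphorins also need a neuropilin as the binding partner. Ephrins are held on the membrane and signal in both directions when they meet an Eph receptor tyrosine kinase on a neighbouring cell. Netrins act through DCC, neogenin and UNC5 receptors, and Slits through Robos. Melanocytes descend from the neural crest, whose migrating cells use semaphorin and ephrin cues, and many of these genes are also active in melanoma.

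Total counts ran from 7427637 to 23938392 per library. Levels are given as CPM (counts scaled to a fixed library total), scaled between libraries by the trimmed mean of M-values (TMM). A gene is called changed where the edgeR quasi-likelihood test gave a Benjamini-Hochberg adjusted p under 0.05 over all tested genes, and every adjusted p of a gene below comes from that fit. MITF itself lay at 304 CPM in empty vector cells, 657 CPM in MITF vector cells, 467 CPM in scrambled siRNA cells and 343 CPM in MITF siRNA cells (group means, n = 3). The labels call the replicates independent without saying how the cultures were kept apart, and p-values cover only the spread among the libraries. All 8 melanocyte and melanoma markers were above 1 CPM in every group. The neuronal genes SNAP25 and STMN2 and the keratinocyte gene KRT5 had 0 counts, and the endothelial genes PECAM1 and CDH5 at most 3 a library. The 5 endothelial markers summed to 1.82 to 3.74 CPM over all libraries, with KDR at 0.964 to 3.03 CPM and VWF at 0.404 to 1.19 CPM. The 4 keratinocyte markers summed to 15.7 to 24.4 CPM, nearly all of it KRT10 (15.6 to 24.1 CPM). The summed level of 6 neuronal markers was 4.04 to 5.09 CPM in empty vector cells, 0.821 to 1.81 CPM in MITF vector cells, 1.48 to 2.53 CPM in scrambled siRNA cells and 1.25 to 2.20 CPM in MITF siRNA cells. The lower sum under the MITF vector came from SYT1, at a mean of 3.54 CPM in empty vector cells and 0.248 CPM in MITF vector cells, while RBFOX3 was at 0.672 and 0.838 CPM. The 5 fibroblast markers summed to 24.9 to 26.1, 31.1 to 34.4, 17.1 to 20.0 and 19.2 to 24.8 CPM in the same order. Most of each sum was LUM, at means of 21.8, 27.9, 13.1 and 14.0 CPM, while COL1A1 was at most 1.24 CPM and COL1A2 at most 0.955 CPM in any library. The libraries with the MITF vector gave 1.22% to 1.27% of their counts to the nuclear RNA MALAT1, against 0.273% to 0.758% in the other 9. Whether the marker or MALAT1 differences have a part in the changes described below was not tested. Fewer cells of a kind and less RNA per cell cannot be told apart in bulk RNA.

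Each family with a tested member held at least 1 that changed with MITF overexpression; no Slit could be tested. Under the MITF vector 33 of 47 tested members changed against the empty vector, 15 higher and 18 lower, where 59.4% of all tested genes changed (28.6% higher and 30.8% lower). Changes of at least 2-fold were found in 17 members (36.2%), beside 12.2% of all tested genes. Of these 8 were higher, beside 6.05%, and 9 lower, beside 6.11%. The median size of the change was 0.63 on the log2 scale over the members and 0.29 over all tested genes. With MITF siRNA 24 members changed against scrambled siRNA, 13 higher and 11 lower, beside 35.4% of all tested genes (18.7% higher and 16.7% lower), with a median size of 0.29 against 0.17. The siRNA changes reached 2-fold in 3 members, beside 1.76% of all tested genes; SEMA3C and SEMA3D were the ones that rose, beside 1.31%, and PLXNA2 fell.

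Semaphorins, plexins, Eph receptors and ephrins held members that moved one way with the MITF vector and the other way with MITF siRNA, each against its own control. There were 17 members called in both comparisons with opposite signs, 36.2% of the tested members, where 17.8% of all tested genes did so. These comparisons share no library. With the controls exchanged, as given below, 6 of the 17 kept opposite calls of the same signs, beside 5.32% of all tested genes. Higher with the MITF vector and lower with MITF siRNA were the semaphorins SEMA5A and SEMA6A, the plexins PLXNA1, PLXNA2, PLXNA3 and PLXNC1, the receptor EPHA5 and the ligand EFNB3, 8 members beside 7.76% of all tested genes. Lower with the MITF vector and higher with MITF siRNA were the semaphorins SEMA3B, SEMA3C, SEMA3D and SEMA6B, the plexins PLXNB2 and PLXNB3, the receptors EPHA2 and EPHB3 and the ligand EFNB2, 9 members beside 10% of all tested genes. Calls of the same sign in both comparisons were made for 2 members, beside 6.93% of all tested genes. These were the receptor EPHA3, higher in both (2.97% of all tested genes), and the coreceptor NRP2, lower in both (3.96%). A further 14 members were called with overexpression alone (34.7% of all tested genes), 5 with siRNA alone (10.7%) and 9 in neither comparison (29.9%). The difference between the responses, tested in the same fit, was called for 39 of the 47 members, beside 56.9% of all tested genes. It was positive for 20 (27.1% of all) and negative for 19 (29.8%), and it reached 2-fold for 22, beside 16%, with 8.36% positive and 7.62% negative among all tested genes.

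**Figure D1:**
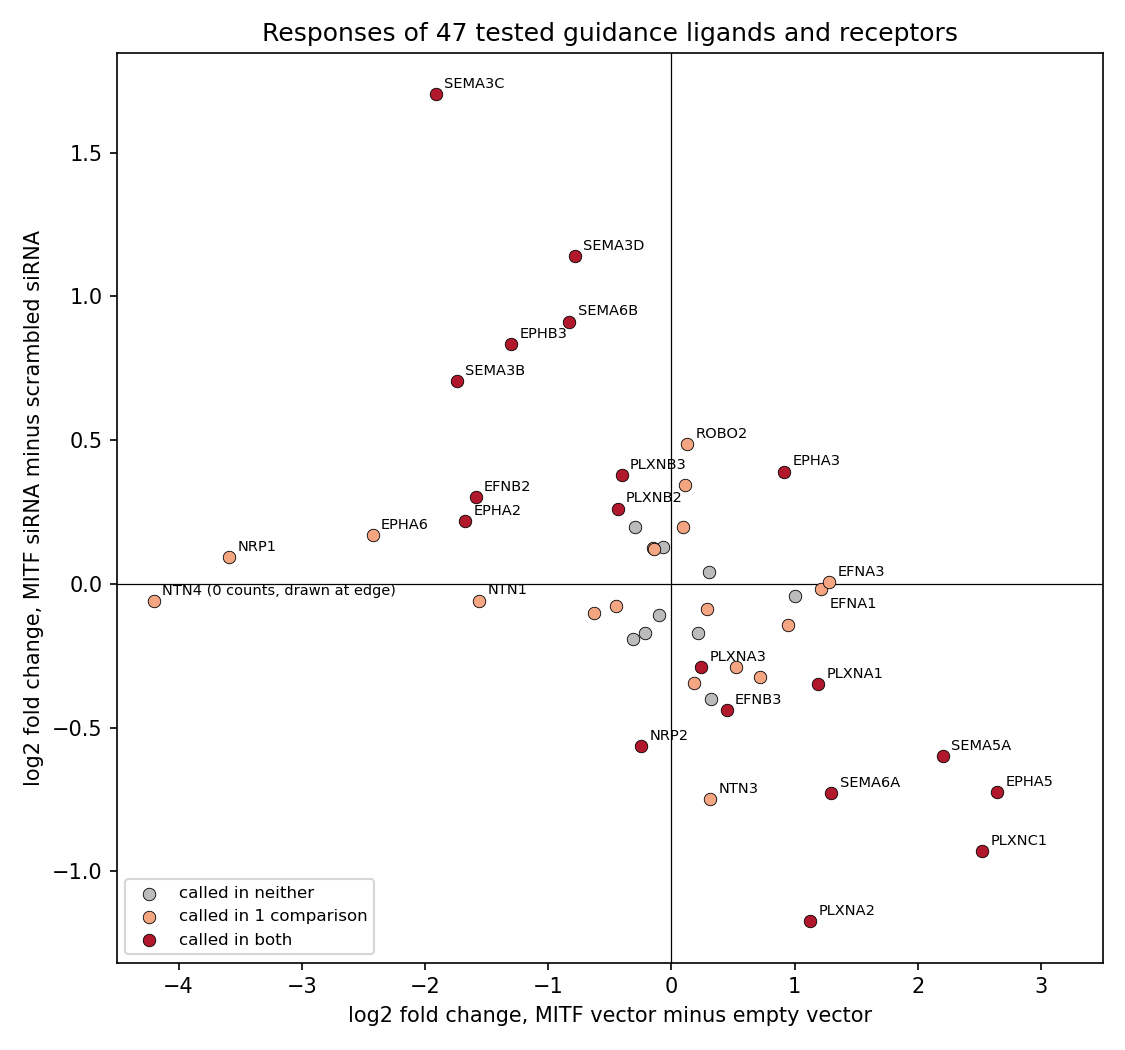
Each point is 1 of the 47 tested members, with its log2 fold change for the MITF vector against the empty vector on the horizontal axis and for MITF siRNA against scrambled siRNA on the vertical axis; colour gives the number of comparisons in which it was called. The 17 members called with opposite signs lie in the upper left and lower right, with SEMA3C at -1.91 and 1.70 and PLXNC1 at 2.52 and -0.93; NTN4, which has 0 counts with the MITF vector, is drawn at the left edge.

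SEMA3B, SEMA3C and SEMA3D fell under the MITF vector and rose under MITF siRNA, each against its own control. Among 5 tested secreted semaphorins 3 fell and 1 rose with the MITF vector, and 3 rose and 0 fell with MITF siRNA, where 59.4% and 35.4% of all tested genes were called. SEMA3C, a secreted cue that binds neuropilins with plexins such as PLXND1, was read at 166, 169 and 168 CPM in the empty vector libraries and at 44.9, 44.0 and 44.8 CPM in the MITF vector libraries. In the siRNA experiment it was read at 47.9, 49.0 and 51.7 CPM in scrambled siRNA cells and 153, 178 and 153 CPM in MITF siRNA cells. The libraries thus formed a high set, with the empty vector and MITF siRNA, and a low set, with the MITF vector and scrambled siRNA, and the sets did not overlap. SEMA3C was 3.76-fold lower with the MITF vector (log2 change -1.91, SE 0.056, adjusted p = 6.50e-25) and 3.26-fold higher with MITF siRNA (log2 change 1.70, SE 0.056, adjusted p = 1.56e-22).

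SEMA3B, which is cut by furin-like proteases and is known as a candidate tumour suppressor in lung cancer, gave 200.2, 193 and 198 CPM in empty vector cells and 56.7, 61.2 and 59.3 CPM in MITF vector cells. Its levels were 147, 149.8 and 150.3 CPM in scrambled siRNA cells and 255, 248 and 228 CPM in MITF siRNA cells. All 4 groups were separate from each other, with the MITF vector lowest and MITF siRNA highest. The changes were -1.74 (SE 0.050) on the log2 scale with the MITF vector (adjusted p = 2.82e-25) and 0.71 (SE 0.046) with MITF siRNA (adjusted p = 2.34e-14). SEMA3D, a cue in neural crest and vessel development, was low, at 6.33, 7.29 and 7.99 CPM in empty vector cells, 4.92, 3.73 and 3.56 CPM in MITF vector cells, 3.06, 2.81 and 2.72 CPM in scrambled siRNA cells and 5.33, 7.59 and 6.04 CPM in MITF siRNA cells. It fell with the MITF vector (log2 change -0.79, SE 0.16, adjusted p = 8.78e-05) and rose with MITF siRNA (log2 change 1.14, SE 0.17, adjusted p = 2.00e-06), and neither pair of groups overlapped.

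SEMA3A, the repellent for which the family was first described, did not follow SEMA3C and SEMA3D, although all of them lie on chromosome 7. It was read at 26.0, 27.4 and 27.0 CPM in empty vector cells, 26.5, 25.7 and 24.2 CPM in MITF vector cells, 16.9, 17.9 and 17.9 CPM in scrambled siRNA cells and 18.1, 20.6 and 18.9 CPM in MITF siRNA cells. The vector groups overlapped, the siRNA groups were apart by a narrow gap, and neither comparison was called (-0.06, adjusted p = 0.477, and 0.13, adjusted p = 0.213). Between the control groups it was 1.52-fold lower with scrambled siRNA (log2 change -0.60, SE 0.082, adjusted p = 2.54e-07). SEMA3F, which signals mainly through NRP2, rose from 3.54 to 5.17 CPM in MITF vector cells (log2 change 0.52, SE 0.17, adjusted p = 0.00753) and was not called with MITF siRNA (-0.29, adjusted p = 0.128). Its level was 5.46 CPM in scrambled siRNA cells and 4.49 CPM in MITF siRNA cells. Scrambled siRNA was above the empty vector (0.60, adjusted p = 0.00556), and the MITF vector had no call against scrambled siRNA (-0.08, adjusted p = 0.668). SEMA3E and SEMA3G did not pass the filter, with 1 and 105 counts over all 12 libraries.

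The membrane semaphorins did not share a direction: of 11 tested, 3 rose and 3 fell with the MITF vector, and 1 rose and 3 fell with MITF siRNA (59.4% and 35.4% of all tested genes were called). SEMA5A, whose thrombospondin repeats bind proteoglycans, was read at 56.3, 53.5 and 58.5 CPM in empty vector cells, 256, 279 and 243 CPM in MITF vector cells, 127, 127 and 119 CPM in scrambled siRNA cells and 73.5, 81.6 and 90.8 CPM in MITF siRNA cells. No libraries of different groups overlapped. It was 4.61-fold higher with the MITF vector (log2 change 2.20, SE 0.068, adjusted p = 2.44e-18) and 1.51-fold lower with MITF siRNA (log2 change -0.60, SE 0.063, adjusted p = 9.16e-08). SEMA6A, a ligand of PLXNA2 and PLXNA4, gave 34.3, 42.0 and 39.9 CPM in empty vector cells, 91.0, 100.3 and 90.9 CPM in MITF vector cells, 56.2, 69.3 and 64.0 CPM in scrambled siRNA cells and 36.1, 36.8 and 41.3 CPM in MITF siRNA cells. The MITF siRNA libraries lay within the range of the empty vector libraries, and both changes were called (1.30, SE 0.080, adjusted p = 6.44e-12, with the MITF vector and -0.73, SE 0.077, adjusted p = 1.95e-07, with MITF siRNA).

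SEMA6B, a relative of SEMA6A that also binds A-type plexins, moved against it. Its levels were 72.8, 73.8 and 72.3 CPM in empty vector cells, 42.6, 40.8 and 39.6 CPM in MITF vector cells, 58.9, 54.8 and 46.9 CPM in scrambled siRNA cells and 99.9, 104 and 98.8 CPM in MITF siRNA cells. It was lower with the MITF vector (log2 change -0.83, SE 0.063, adjusted p = 1.24e-13) and higher with MITF siRNA (log2 change 0.91, SE 0.058, adjusted p = 1.75e-14), and all 4 groups were separate. SEMA6C rose with the MITF vector at a low level, from 2.19 to 3.49 CPM (log2 change 0.72, SE 0.21, adjusted p = 0.00402). SEMA7A, a lipid-anchored ligand of PLXNC1, fell from 13.4 ± 0.491 to 8.56 ± 1.46 CPM (mean ± SD, n = 3; log2 change -0.63, SE 0.12, adjusted p = 1.91e-05) and had no call with MITF siRNA (-0.10, adjusted p = 0.524). In the siRNA experiment SEMA7A was at 9.84 CPM in scrambled siRNA cells and 9.20 CPM in MITF siRNA cells. Scrambled siRNA was also below the empty vector for SEMA7A (-0.43, adjusted p = 0.00391). The MITF vector had no SEMA7A call against scrambled siRNA (-0.19, adjusted p = 0.168). SEMA6D was called between the controls and in neither treatment comparison. It was read at 1.58, 2.34 and 2.33 CPM in empty vector cells and 1.78, 1.67 and 1.72 CPM in MITF vector cells, but at 5.51, 4.78 and 4.78 CPM in scrambled siRNA cells and 4.82, 3.82 and 4.69 CPM in MITF siRNA cells. Both siRNA groups lay above both vector groups, and scrambled siRNA exceeded the empty vector 2.50-fold (log2 change 1.32, SE 0.20, adjusted p = 2.77e-06). Among the class with immune and vascular roles, SEMA4C fell slightly with the MITF vector (-0.15, adjusted p = 0.0346), SEMA4B fell with MITF siRNA (-0.34, adjusted p = 0.0202), and SEMA4D, SEMA4F and SEMA4G had no call in either comparison. SEMA4A and SEMA5B did not pass the filter.

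**Figure D2:**
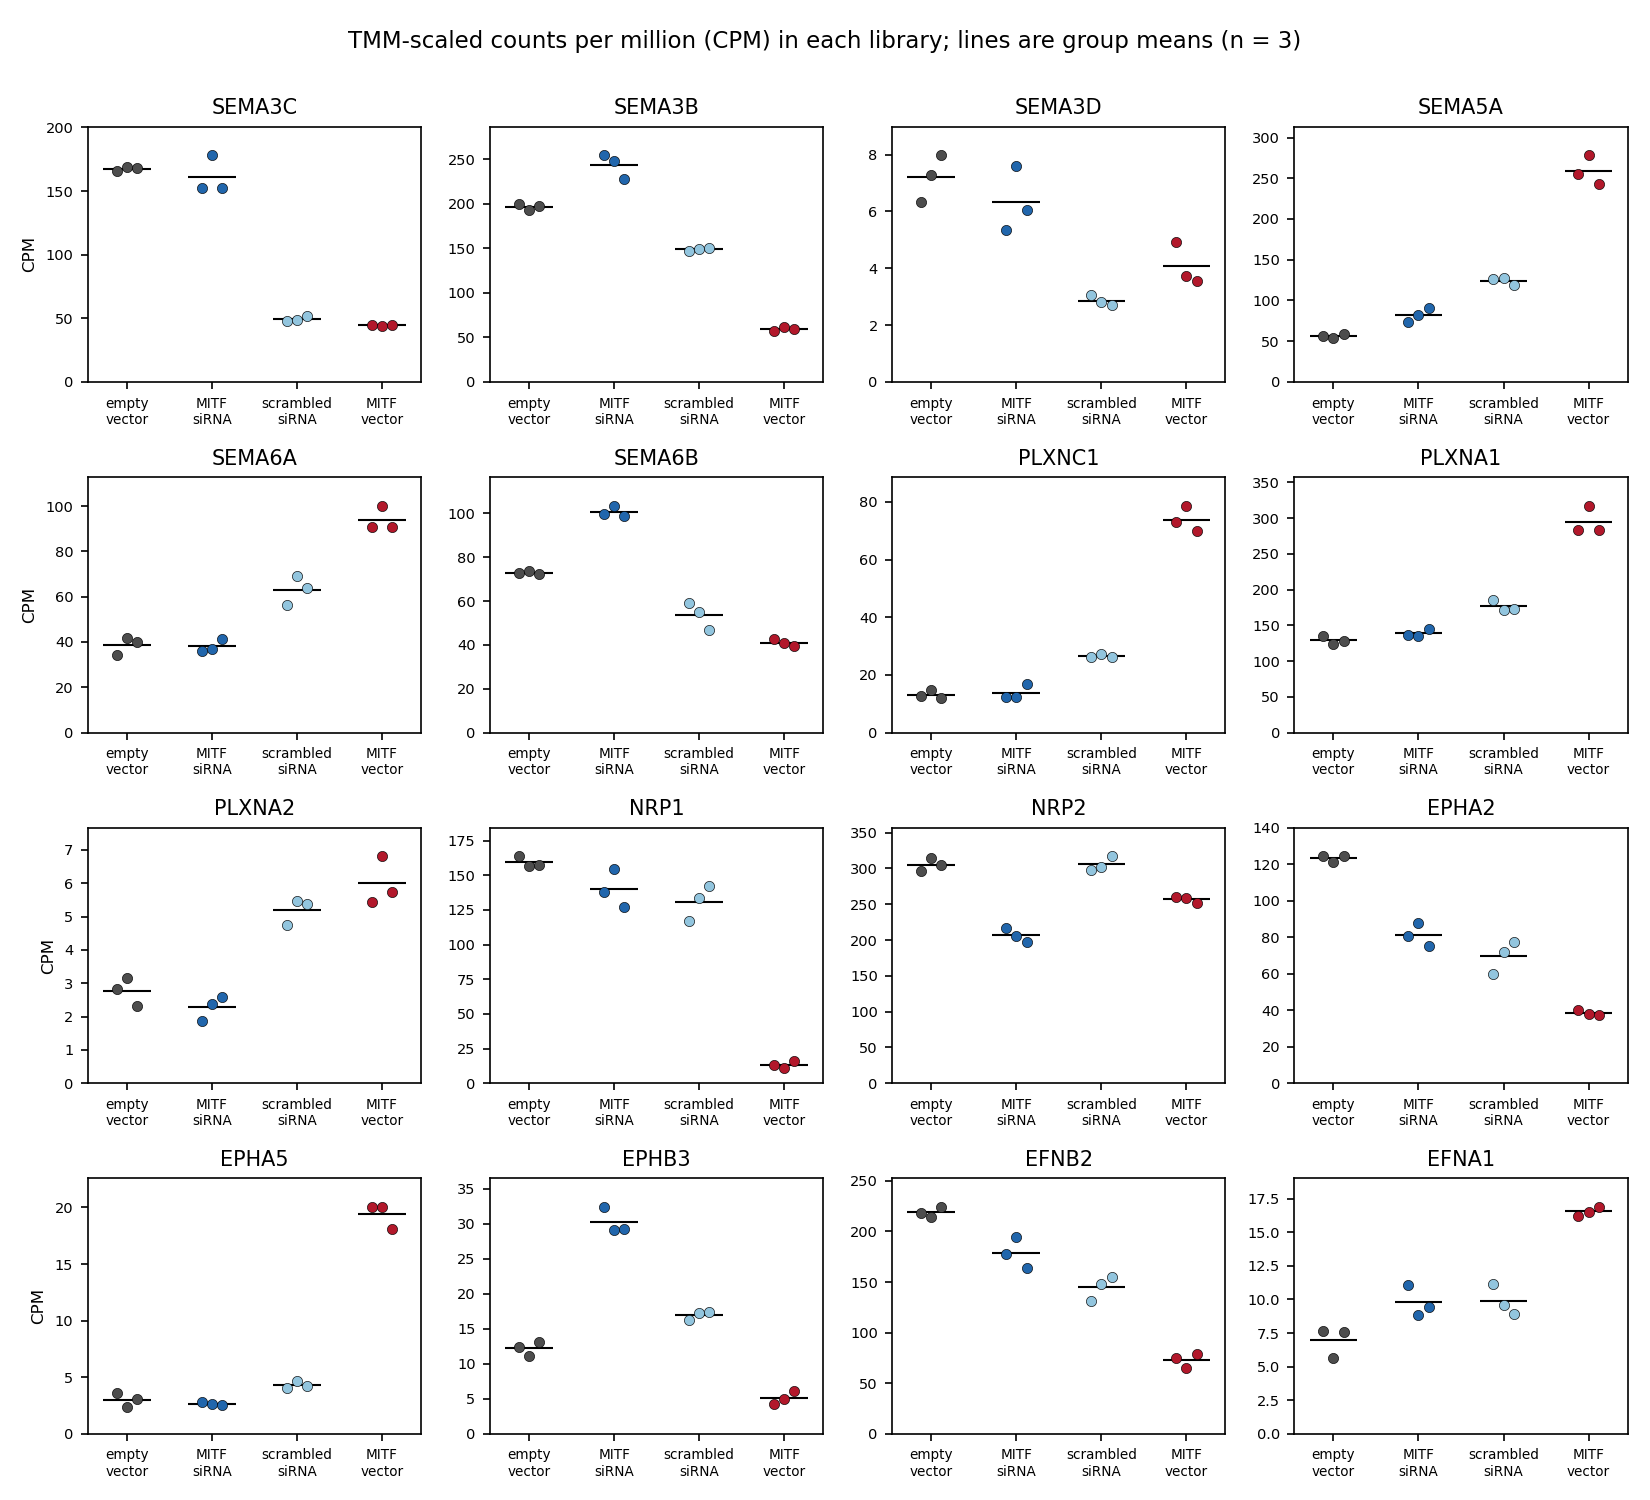
Each panel gives 1 member, with CPM on the vertical axis from 0 and the groups in order of their MITF level on the horizontal axis; points are the 3 libraries of a group and lines their mean. SEMA5A, PLXNC1 and PLXNA1 are highest with the MITF vector, SEMA3B, SEMA6B and EPHB3 are highest with MITF siRNA, and NRP1 is low only in the MITF vector libraries, at 11.2 to 15.8 CPM.

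Of 8 tested plexins, the signalling receptors for semaphorins, 5 rose and 2 fell with the MITF vector, and 4 fell and 3 rose with MITF siRNA (59.4% and 35.4% of all tested genes were called). PLXNC1, the receptor for SEMA7A, was read at 12.5, 14.7 and 11.9 CPM in empty vector cells and 73.1, 78.8 and 69.8 CPM in MITF vector cells, which is 5.74-fold higher (log2 change 2.52, SE 0.097, adjusted p = 2.46e-17). It went from 26.1, 27.3 and 26.1 CPM in scrambled siRNA cells to 12.2, 12.3 and 16.7 CPM in MITF siRNA cells, 1.90-fold lower (log2 change -0.93, SE 0.096, adjusted p = 3.64e-08). The MITF siRNA libraries lay in and just above the range of the empty vector libraries. Against the empty vector, its ligand gene SEMA7A, described above, went the other way with the MITF vector. Against scrambled siRNA, SEMA7A had no call with the MITF vector (-0.19, adjusted p = 0.168), while PLXNC1 was still higher (1.48, adjusted p = 5.77e-14).

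PLXNA1, PLXNA2 and PLXNA3, the receptors that pair with neuropilins for secreted semaphorins, were each called higher with the MITF vector and lower with MITF siRNA. PLXNA1 was read at 135, 125 and 128 CPM in empty vector cells, 284, 318 and 283 CPM in MITF vector cells, 185, 172 and 173 CPM in scrambled siRNA cells and 136, 135 and 145 CPM in MITF siRNA cells (1.19, SE 0.050, adjusted p = 1.73e-20, and -0.35, SE 0.049, adjusted p = 8.26e-07). For PLXNA2 the values were 2.82, 3.17 and 2.33 CPM, 5.43, 6.81 and 5.74 CPM, 4.74, 5.48 and 5.37 CPM and 1.87, 2.39 and 2.58 CPM in the same order of groups. The fitted siRNA change of PLXNA2 was the largest of the 3 in size (log2 change -1.17, SE 0.17, adjusted p = 1.20e-06), beside its rise with the MITF vector (1.12, adjusted p = 1.60e-06). PLXNA3 moved least, from 16.1, 18.4 and 14.7 to 18.6, 19.5 and 19.5 CPM in MITF vector cells (log2 change 0.24, SE 0.10, adjusted p = 0.0396) and from 20.5, 20.2 and 18.8 to 18.2, 13.3 and 17.1 CPM in MITF siRNA cells (log2 change -0.29, SE 0.094, adjusted p = 0.0154). The PLXNA3 call with the MITF vector ended without any 1 of 5 libraries (all but empty vector replicate 2), with adjusted p from 0.0656 to 0.194. With MITF siRNA it ended without scrambled siRNA replicate 1 (0.0540) or MITF siRNA replicate 2 (0.118).

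The B-type plexins, among which are receptors for SEMA4 ligands, were split. PLXNB1 rose from 42.8 ± 1.95 to 82.6 ± 7.88 CPM in MITF vector cells (log2 change 0.94, SE 0.071, adjusted p = 3.97e-12), whereas PLXNB2 and PLXNB3 fell. PLXNB2 was read at 233, 228 and 224 CPM in empty vector cells, 161, 171 and 174 CPM in MITF vector cells, 217, 220.1 and 225 CPM in scrambled siRNA cells and 258, 269.7 and 266 CPM in MITF siRNA cells. The controls overlapped for this gene, with the MITF vector libraries below both and the MITF siRNA libraries above both (-0.44, SE 0.043, adjusted p = 1.11e-10, and 0.26, SE 0.042, adjusted p = 6.67e-06). PLXNB3 was also lowest under the MITF vector and highest under MITF siRNA, at 46.0, 45.4 and 50.1 CPM in empty vector cells, 34.3, 37.1 and 35.6 CPM in MITF vector cells, 50.3, 54.6 and 52.7 CPM in scrambled siRNA cells and 72.7, 60.0 and 71.9 CPM in MITF siRNA cells (-0.40, SE 0.071, adjusted p = 9.75e-06, and 0.38, SE 0.063, adjusted p = 1.33e-05). In GENCODE 29, 20.4% of the PLXNB3 exon bases are shared with exons of other genes, the largest part with SRPK3. The sources used here do not give how strand and overlaps were treated in counting, which leaves its value less certain. PLXND1, the receptor for SEMA3E and SEMA3C, had 36.7 CPM in empty vector cells and 39.1 CPM in MITF vector cells without a call (adjusted p = 0.269) and rose slightly with MITF siRNA (0.20, adjusted p = 0.0347). PLXNA4 had 3 counts in all.

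NRP1, coreceptor of SEMA3A and of VEGF-A, was read at 164, 156 and 158 CPM in empty vector cells and 13.2, 11.2 and 15.8 CPM in MITF vector cells, which is 12.05-fold lower (log2 change -3.59, SE 0.12, adjusted p = 9.06e-11). With scrambled siRNA it was 117, 134 and 142 CPM and with MITF siRNA 138, 155 and 127 CPM, overlapping ranges without a call (adjusted p = 0.481). NRP1 was thus low in the MITF vector libraries alone, and the difference between its responses was called (log2 change -3.68, SE 0.15, adjusted p = 9.30e-10). NRP2, coreceptor of SEMA3F and VEGF-C, fell in both comparisons, and the difference between its responses was called (log2 change 0.32, SE 0.061, adjusted p = 3.66e-05). Its levels were 296, 314 and 305 CPM in empty vector cells and 260.2, 259 and 252 CPM in MITF vector cells (log2 change -0.25, SE 0.044, adjusted p = 9.91e-06). They were 297, 302 and 317 CPM in scrambled siRNA cells and 217, 205 and 198 CPM in MITF siRNA cells (log2 change -0.57, SE 0.043, adjusted p = 1.88e-12). The control groups overlapped for NRP2 (0.00, adjusted p = 0.955).

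VEGF ligands and receptors share the neuropilins with semaphorins. In a list of 9 such symbols 7 were tested, of which 2 rose and 3 fell with the MITF vector (59.4% of all tested genes changed) and 1 rose and 2 fell with MITF siRNA (35.4%). Their median log2 changes were -0.46 and -0.21, beside 0.0037 and -0.0026 over all tested genes. FLT1, the receptor for VEGF-A and PGF, fell from 49.3 to 4.60 CPM in MITF vector cells (log2 change -3.44, SE 0.22, adjusted p = 7.47e-07) and rose from 31.1 to 62.8 CPM in MITF siRNA cells (1.01, SE 0.16, adjusted p = 0.00103). PGF rose with the MITF vector (0.91, SE 0.10, adjusted p = 2.53e-09). VEGFC, a ligand of the NRP2 complex, fell in both comparisons (-0.83, SE 0.12, adjusted p = 3.75e-07, with the vector, and -0.56, SE 0.13, adjusted p = 7.30e-04, with siRNA), as NRP2 did.

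**Figure D3:**
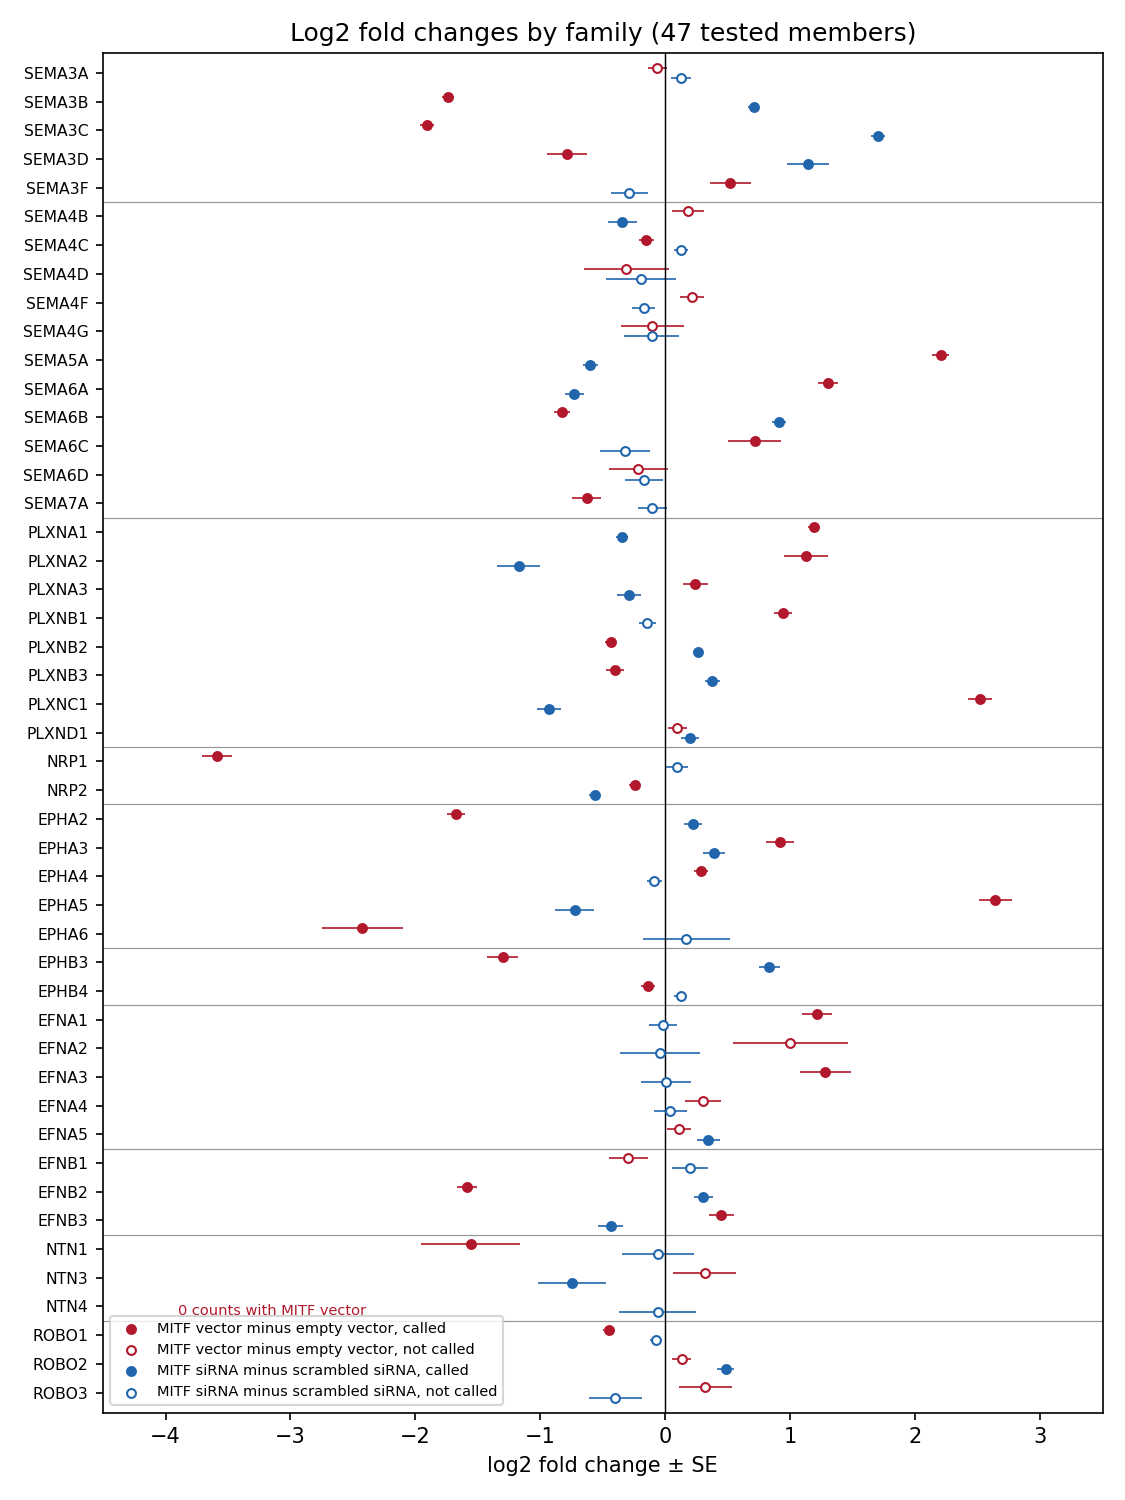
Log2 fold changes with their standard errors are given for the 47 tested members, grouped by family, in red for the MITF vector against the empty vector and in blue for MITF siRNA against scrambled siRNA; filled points were called. Plexins A and C1 lie to the right in red and to the left in blue, SEMA3B, SEMA3C and SEMA3D the other way round, and both NRP2 points lie left of 0; NTN4 has no point for the MITF vector, where its counts are 0.

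MITF binds E-box letters: CACGTG is one form, and a variant with a single changed base, CATGTG, is the other. The members' promoter sequences were searched for these letters. The RefSeq promoter table (build GRCh38.p14, windows of 300 bases across each start, mostly upstream) held 88 windows for 56 of the 64 members; EFNB3, EPHA10, NRP1, NTN1, NTN3, SEMA3A, SEMA6A and SEMA6B had none. Either motif, read on both strands, stood in 14.8% of the members' windows and in 17.6% of all 35116 windows. CACGTG, with or without the other motif, was in 4.55% and 7.26%, and CATGTG, counted likewise, in 10.2% and 11.1%. Among the 40 tested members with a window, 6 held either motif: NRP2, PLXNB2, ROBO1, SEMA3F, SEMA4D and SEMA6D. Of the 17 members with opposite calls 14 had a window, and among these PLXNB2 alone held a motif. Its window is shown with those of PLXNC1 and SEMA3C, which had the most positive and the most negative difference of responses among those 14 and were chosen after their values were seen. For each of these last 2 genes the earlier listed of 2 windows is given. Capitals mark every CANNTG, the general E-box form, which 68.7% of all windows held; overlapping matches run together.
PLXNB2 (chr22:50301620-50301919, minus strand): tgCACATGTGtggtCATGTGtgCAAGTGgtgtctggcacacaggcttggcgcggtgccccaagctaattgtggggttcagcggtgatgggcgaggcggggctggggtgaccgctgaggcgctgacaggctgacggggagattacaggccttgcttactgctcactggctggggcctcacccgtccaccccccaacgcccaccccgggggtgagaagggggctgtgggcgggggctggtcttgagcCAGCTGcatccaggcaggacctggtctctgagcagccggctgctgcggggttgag
PLXNC1 (chr12:94262369-94262668, plus strand): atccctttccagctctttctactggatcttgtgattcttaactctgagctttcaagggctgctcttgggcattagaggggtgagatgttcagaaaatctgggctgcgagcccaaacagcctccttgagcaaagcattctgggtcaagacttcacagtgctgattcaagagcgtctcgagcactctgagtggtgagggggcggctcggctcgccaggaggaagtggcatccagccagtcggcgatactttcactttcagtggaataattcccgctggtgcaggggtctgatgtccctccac
SEMA3C (chr7:80922340-80922639, minus strand): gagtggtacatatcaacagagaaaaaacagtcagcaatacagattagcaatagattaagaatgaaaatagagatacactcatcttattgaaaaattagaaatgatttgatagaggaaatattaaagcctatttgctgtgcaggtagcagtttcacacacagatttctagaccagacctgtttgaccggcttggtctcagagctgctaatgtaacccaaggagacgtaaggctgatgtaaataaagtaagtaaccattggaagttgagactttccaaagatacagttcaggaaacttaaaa
The PLXNB2 window has 5 matches to CANNTG, 4 of them near its upstream end, where neighbouring matches overlap. The printed PLXNC1 and SEMA3C windows have 0, and CANNTG matches in the other window of each gene are not given here. A match is a description of the letters only, and the windows cover no distal elements.

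All 5 tested EphA receptors were called with the MITF vector, 3 higher and 2 lower, and 2 rose and 1 fell with MITF siRNA (59.4% and 35.4% of all tested genes were called). EPHA2, a receptor for ephrin-A ligands that is often high in invasive melanoma, was read at 124, 121 and 124 CPM in empty vector cells and 40.4, 37.8 and 37.5 CPM in MITF vector cells, 3.20-fold lower (log2 change -1.68, SE 0.074, adjusted p = 1.83e-14). It was 59.6, 71.7 and 77.5 CPM in scrambled siRNA cells and 80.7, 87.6 and 75.4 CPM in MITF siRNA cells. These ranges overlapped and the rise was small (log2 change 0.22, SE 0.071, adjusted p = 0.0195); the call ended without scrambled siRNA replicate 1 (adjusted p = 0.130), without MITF siRNA replicate 2 (0.114) and in a fit of those 2 groups alone (0.108).

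EPHA5, a receptor best known from brain development, had the largest rise of the tested members under the MITF vector. It was read at 3.58, 2.34 and 3.03 CPM in empty vector cells and 20.1, 20.0 and 18.1 CPM in MITF vector cells, 6.24-fold higher (log2 change 2.64, SE 0.13, adjusted p = 2.44e-18). With scrambled siRNA it was 4.06, 4.71 and 4.27 CPM and with MITF siRNA 2.78, 2.601 and 2.53 CPM (log2 change -0.73, SE 0.16, adjusted p = 4.21e-04). The levels outside the MITF vector libraries were low, and the siRNA groups did not overlap. EPHA3, a receptor for EFNA5, was read at 9.22, 10.3 and 7.89 CPM in empty vector cells, 16.3, 18.9 and 16.0 CPM in MITF vector cells, 15.4, 17.8 and 17.1 CPM in scrambled siRNA cells and 21.9, 24.1 and 20.1 CPM in MITF siRNA cells. The empty vector libraries were lowest and the MITF siRNA libraries highest, and it was called higher in both comparisons (0.92, SE 0.11, adjusted p = 9.23e-09, and 0.39, SE 0.091, adjusted p = 9.02e-04). EPHA4, which binds ephrins of both kinds, rose from 76.0 ± 2.42 to 92.7 ± 4.20 CPM in MITF vector cells (log2 change 0.29, SE 0.057, adjusted p = 5.27e-05) and had no call with MITF siRNA (-0.09, adjusted p = 0.261). EPHA6 fell 5.37-fold with the MITF vector, from a level of 2.30 CPM to 0.427 CPM (log2 change -2.42, SE 0.32, adjusted p = 7.02e-08). It was also low in the siRNA experiment, at 0.714 CPM in scrambled siRNA cells and 0.802 CPM in MITF siRNA cells. Against scrambled siRNA the MITF vector had no EPHA6 call (-0.75, adjusted p = 0.117). EPHA7 and EPHA10 had 0 counts in all 12 libraries, which at a floor of 3 counts allows up to 0.125 CPM in the deepest library and 0.404 CPM in the shallowest. EPHA1 and EPHA8 did not pass the filter either.

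EPHB3 and EPHB4 were the EphB receptors that could be tested. EPHB3, a receptor for ephrin-B ligands, was read at 12.5, 11.1 and 13.1 CPM in empty vector cells, 4.19, 4.95 and 6.14 CPM in MITF vector cells, 16.3, 17.2 and 17.4 CPM in scrambled siRNA cells and 32.4, 29.1 and 29.3 CPM in MITF siRNA cells. All 4 groups were separate, with a 2.47-fold fall in one comparison (log2 change -1.30, SE 0.12, adjusted p = 3.07e-11) and a 1.78-fold rise in the other (log2 change 0.83, SE 0.086, adjusted p = 1.58e-09). EPHB4, the partner of EFNB2 in vessel formation, changed little: it was 64.2 ± 3.52 CPM in empty vector cells and 58.7 ± 1.91 CPM in MITF vector cells (log2 change -0.14, SE 0.057, adjusted p = 0.0348), with no call for MITF siRNA (0.12, adjusted p = 0.0717). EPHB1, EPHB2 and EPHB6 had at most 6 counts in any library.

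EFNB2, the ephrin with the highest level per length, was lower under the MITF vector, unlike EFNB3. It was read at 218, 214 and 224 CPM in empty vector cells and 75.1, 65.1 and 78.6 CPM in MITF vector cells, 3.01-fold lower (log2 change -1.59, SE 0.080, adjusted p = 1.76e-10). With scrambled siRNA it was 131, 148 and 155 CPM and with MITF siRNA 177, 195 and 164 CPM (log2 change 0.30, SE 0.076, adjusted p = 0.00604), so each pair of groups was separate. EFNB2 lies on chromosome 13, where 67 tested genes between SETDB2 and ABCC4 had a median of -0.50 (log2 scale) under the MITF vector, 51 of them below 0. Between that run and EFNB2 lie 29 tested genes, and the 10 nearest tested neighbours of EFNB2 had a median of 0.089, with 4 below 0. The median over all tested genes was 0.0037. Whether the position of EFNB2 has a part in its change was not tested. Exons of other genes, the largest part AL138689.2, share 26.2% of the EFNB2 exon bases, which leaves its counts uncertain too. EFNB3 gave 10.5, 12.2 and 12.9 CPM in empty vector cells, 16.4, 16.7 and 14.8 CPM in MITF vector cells, 12.1, 11.8 and 11.7 CPM in scrambled siRNA cells and 8.96, 8.23 and 9.03 CPM in MITF siRNA cells. It rose with the MITF vector (log2 change 0.45, SE 0.10, adjusted p = 2.25e-04) and fell with MITF siRNA (log2 change -0.44, SE 0.10, adjusted p = 8.71e-04), the reverse of EFNB2. EFNB1 had no call (adjusted p = 0.107 and 0.292).

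Of 5 tested ephrin-A ligands, which are lipid-anchored, 2 rose and 0 fell with the MITF vector, and 1 rose with MITF siRNA (59.4% and 35.4% of all tested genes were called). EFNA1, the main ligand of EPHA2, was read at 7.64, 5.64 and 7.58 CPM in empty vector cells and 16.2, 16.5 and 16.9 CPM in MITF vector cells (log2 change 1.21, SE 0.12, adjusted p = 7.83e-11), while EPHA2 fell. With scrambled siRNA it was 11.2, 9.55 and 8.90 CPM and with MITF siRNA 11.1, 8.81 and 9.46 CPM, without a call (adjusted p = 0.926). EFNA3, also on chromosome 1, was read at 2.62, 2.20 and 1.62 CPM in empty vector cells and 5.93, 5.05 and 5.01 CPM in MITF vector cells (log2 change 1.28, SE 0.20, adjusted p = 1.66e-06). It had 2.45, 2.25 and 3.53 CPM in scrambled siRNA cells and 2.83, 3.13 and 2.36 CPM in MITF siRNA cells (adjusted p = 0.985). As 44.7% of the EFNA3 exon bases are shared with other genes, the largest part with AL691442.1, its counts are uncertain. EFNA4 itself had 4.95 and 6.28 CPM (adjusted p = 0.0683). EFNA5 rose with MITF siRNA, from 15.6 ± 2.15 to 19.9 ± 0.886 CPM (log2 change 0.35, SE 0.090, adjusted p = 0.00273), alongside its receptor EPHA3. EFNA2, at or below 1.22 CPM in every library, had no call in either comparison.

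Netrins were near the limit of detection. NTN4, a laminin-binding netrin of basement membranes, had 38, 14 and 22 counts in the empty vector libraries (2.62, 1.93 and 2.22 CPM) and 0 in all 3 MITF vector libraries. Against a floor of 3 counts over that group it was at least 44.8-fold lower (adjusted p = 7.05e-12). It was 0.918, 0.913 and 1.40 CPM in scrambled siRNA cells and 1.30, 0.796 and 1.01 CPM in MITF siRNA cells, overlapping ranges without a call (adjusted p = 0.903). NTN1, the classical attractant, also fell with the MITF vector, from 1.24, 0.688 and 1.52 to 0.319, 0.441 and 0.462 CPM (log2 change -1.56, SE 0.39, adjusted p = 9.63e-04), and had no call with MITF siRNA (adjusted p = 0.899). NTN3 was read at 1.15, 2.53 and 2.65 CPM in scrambled siRNA cells and 1.42, 0.902 and 1.44 CPM in MITF siRNA cells. The groups overlapped and its call as lower (log2 change -0.75, SE 0.27, adjusted p = 0.0293) ended without scrambled siRNA replicate 2 (adjusted p = 0.155) or 3 (0.172) or MITF siRNA replicate 2 (0.113). NTN5 had 2 counts in all.

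Slits were almost silent while their receptors were not. SLIT1, SLIT2 and SLIT3 had 68, 33 and 2 counts over all 12 libraries and did not pass the filter. SLIT2 had 9, 7 and 8 counts in the empty vector libraries, 2, 0 and 0 in the MITF vector libraries and at most 3 in any siRNA library. ROBO1, the main Slit receptor, was read at 319, 348 and 328 CPM in empty vector cells and 246, 243 and 240.1 CPM in MITF vector cells (log2 change -0.45, SE 0.048, adjusted p = 6.03e-10). It was 255, 251 and 238 CPM in scrambled siRNA cells and 241, 249 and 216 CPM in MITF siRNA cells, without a call (adjusted p = 0.214). The empty vector libraries were above all others. ROBO2 rose with MITF siRNA, from 29.7, 27.3 and 28.8 to 37.4, 41.9 and 40.6 CPM (log2 change 0.49, SE 0.068, adjusted p = 6.15e-07); it was 23.3, 23.4 and 21.7 CPM in empty vector cells and 25.0, 26.8 and 22.9 CPM in MITF vector cells (adjusted p = 0.147). ROBO3 had no call (adjusted p = 0.186 and 0.142), and ROBO4, an endothelial receptor, had 13 counts in all.

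Semaphorins, plexins and Eph receptors also differed between the control groups. Between scrambled siRNA and the empty vector 32 of 47 members were called, 18 higher and 14 lower, beside 38.5% of all tested genes (18.9% higher and 19.6% lower). At least 2-fold were 8, beside 4.12% (2.1% higher and 2.02% lower). These differences share libraries with both comparisons above. Among members above a mean log2 CPM of 1, the largest falls were those of SEMA3C (-1.76, SE 0.058, adjusted p = 1.36e-22), SEMA3D (-1.31, adjusted p = 5.00e-07) and EPHA2 (-0.83, adjusted p = 7.79e-09). The largest rises among the same members, after SEMA6D, were those of SEMA5A (1.14, adjusted p = 6.92e-12), PLXNC1 (1.04, adjusted p = 4.08e-08), PLXNA2 (0.92, adjusted p = 1.91e-04) and EPHA3 (0.89, adjusted p = 1.23e-07). Below that level EFNA2 (log2 change 1.42, SE 0.46, adjusted p = 0.0130) was called higher with scrambled siRNA, and EPHA6 (log2 change -1.67, SE 0.31, adjusted p = 5.82e-05) and NTN4 (log2 change -1.10, SE 0.30, adjusted p = 0.00343) lower. MITF also differed between the controls, at 467 CPM in scrambled siRNA cells and 304 CPM in empty vector cells, and delivery and the MITF level cannot be told apart in that difference.

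When the groups are put in order of their MITF level, the empty vector comes lowest, then MITF siRNA, scrambled siRNA and the MITF vector. The 4 group means of 6 members followed that order: EFNA1, PLXNA1, PLXNB1, PLXNC1, SEMA5A and SEMA6C, 12.8% of the tested members beside 9.69% of all tested genes. Another 5 followed the reverse order: EFNB2, EPHA2, EPHA6, NRP1 and SEMA3C, 10.6% beside 8.14%. Some steps in these orders were smaller than the spread of the libraries. For SEMA3C the step between the empty vector and MITF siRNA did not pass the test (log2 difference -0.05, SE 0.051, adjusted p = 0.414), and the MITF vector was slightly below scrambled siRNA (-0.15, SE 0.061, adjusted p = 0.0347). PLXNC1 did not pass the test between MITF siRNA and the empty vector (0.11, SE 0.12, adjusted p = 0.473) and rose further from scrambled siRNA to the MITF vector (1.48, SE 0.081, adjusted p = 5.77e-14). SEMA5A differed at every step, by 0.55 (SE 0.070, adjusted p = 9.99e-07) from the empty vector to MITF siRNA and by 1.06 (SE 0.061, adjusted p = 5.78e-13) from scrambled siRNA to the MITF vector.

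**Figure D4:**
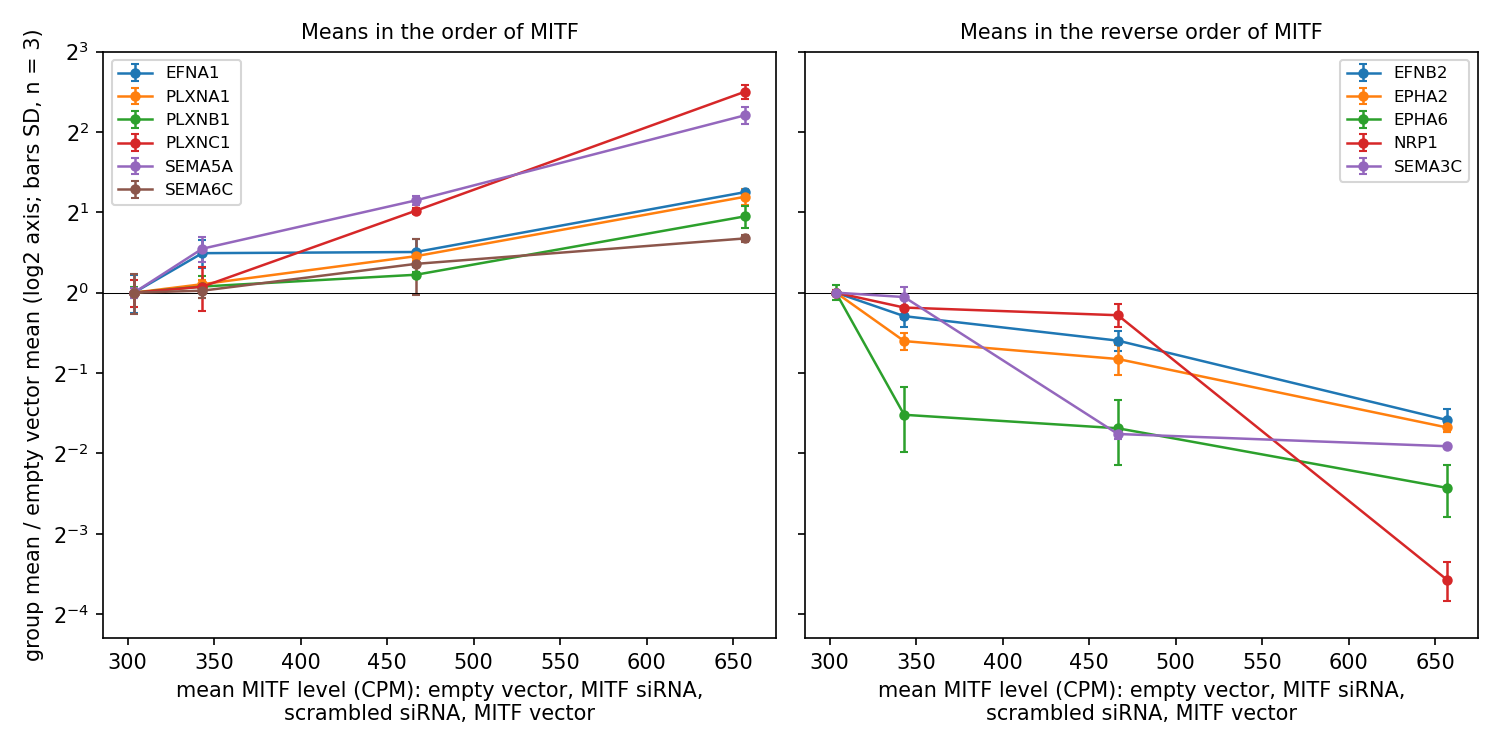
The horizontal axis is the mean MITF level of a group in CPM and the vertical axis, on a log2 scale, the mean of a member divided by its mean with the empty vector, with bars for the SD of the 3 libraries. The left panel holds the 6 members whose means follow the order of MITF and the right panel the 5 in the reverse order, in which NRP1 drops between scrambled siRNA (131 CPM) and the MITF vector (13.4 CPM) and SEMA3C between MITF siRNA (161 CPM) and scrambled siRNA (49.5 CPM).

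With the controls exchanged, that is, the MITF vector against scrambled siRNA and MITF siRNA against the empty vector, 12 members were called with opposite signs, beside 14.5% of all tested genes. Opposite calls with the same signs under either choice of control were found for 6 members, 12.8% of those tested beside 5.32% of all tested genes: SEMA3B, SEMA6B, PLXNB2, PLXNB3, EPHB3 and EFNB3. The choices share all 12 libraries. For EPHB3 the exchanged differences were -1.76 (SE 0.11, adjusted p = 1.40e-15) with the MITF vector and 1.29 (SE 0.096, adjusted p = 3.13e-13) with MITF siRNA. For SEMA3B they were -1.34 (SE 0.049, adjusted p = 4.76e-22) and 0.30 (SE 0.046, adjusted p = 1.28e-06). NRP1 remained lower with the MITF vector (-3.31, SE 0.12, adjusted p = 2.98e-10) and EPHA5 higher (2.16, SE 0.12, adjusted p = 2.31e-17). Others depended on the control: SEMA3D was above scrambled siRNA in the MITF vector libraries (0.53, SE 0.18, adjusted p = 0.0168), and EPHA2 (-0.61, SE 0.069, adjusted p = 3.19e-07) and EFNB2 (-0.29, SE 0.075, adjusted p = 0.00563) were below the empty vector in the MITF siRNA libraries.

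Levels of different genes can be compared only per length, here as mean CPM per kilobase of all exons of the gene in GENCODE 29, which is not the annotation of the counting. With the empty vector EFNB2 (43.6 CPM per kilobase), SEMA3B (34.2), PLXNB2 (31.5), ROBO1 (30.5), EPHA2 (29.7) and SEMA3C (26.7) were highest on that scale. With the MITF vector the order was PLXNA1 (26.9 CPM per kilobase), PLXNB2 (23.3), ROBO1 (22.3), SEMA5A (21.4) and NRP2 (18.5), with EFNB2 at 14.5, EPHA2 at 9.27 and SEMA3C at 7.11. NRP1 went from 13.8 to 1.16 CPM per kilobase and NRP2 from 21.9 to 18.5, on the same scale and between the same groups.

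Other genes of the pathway moved in both directions. Among 25 further cues, receptors and coreceptors 16 were tested, of which 5 rose and 6 fell with the MITF vector and 3 rose and 8 fell with MITF siRNA, with median log2 changes of -0.054 and -0.14. Over all tested genes 28.6% were higher and 30.8% lower with the vector, and 18.7% higher and 16.7% lower with siRNA. FLRT3, a membrane protein that binds UNC5 and Robo receptors, had mean levels of 78.2 CPM in empty vector cells and 11.7 CPM in MITF vector cells (log2 change -2.75, SE 0.075, adjusted p = 8.39e-26), and of 46.8 CPM in scrambled siRNA cells and 104 CPM in MITF siRNA cells (1.15, SE 0.060, adjusted p = 1.62e-16). Its relative FLRT2, an UNC5 ligand, moved the other way in each comparison (0.73, SE 0.054, adjusted p = 8.35e-14, with the vector, and -0.35, SE 0.052, adjusted p = 2.03e-06, with siRNA). FLRT1 rose with MITF siRNA (1.04, SE 0.12, adjusted p = 2.57e-08), as did the adhesion molecule CHL1, a partner of neuropilins (0.58, SE 0.11, adjusted p = 5.24e-05). NRCAM, another adhesion molecule of semaphorin receptor complexes, fell with the MITF vector (-1.75, SE 0.077, adjusted p = 2.02e-19).

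Among 46 tested intracellular effectors of guidance receptors, 18 rose and 19 fell with the MITF vector, and 11 rose and 11 fell with MITF siRNA, with medians of -0.013 and -0.016, beside calls for 59.4% and 35.4% of all tested genes. ABLIM1, an actin-binding protein, rose from 6.18 to 31.7 CPM in MITF vector cells (2.35, SE 0.12, adjusted p = 1.51e-17). SDCBP (syntenin), an adaptor that binds ephrin-B tails, rose with the MITF vector (0.83, SE 0.046, adjusted p = 2.62e-17) and fell with MITF siRNA (-0.47, SE 0.045, adjusted p = 3.12e-10). FARP2, a plexin-A effector, rose (0.90, SE 0.053, adjusted p = 1.53e-16) and ROCK2, a kinase of actomyosin contraction, fell (-0.88, SE 0.049, adjusted p = 2.78e-17) with the MITF vector. With MITF siRNA the kinase gene FYN (0.71, SE 0.050, adjusted p = 2.76e-13) and the Rac exchange factor gene TIAM1 (0.52, SE 0.046, adjusted p = 4.07e-11) rose, and the adaptor gene GRB2 fell (-0.41, SE 0.045, adjusted p = 8.79e-09).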

How the data were processed

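The authors deposited whole-number counts per gene symbol and library, not normalized. Per the submitters' processing notes, the tools named are featureCounts 1.6.3, STAR 2.6.0, SAMtools 1.10 and bcl2fastq 2.18.0, with build hg19. No settings are given in the sources used here. Reads were paired, of 76 bases, from stranded total RNA libraries, per the labels' protocols. 0 columns went unused and 0 rows had no gene.

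Genes were kept by filterByExpr (minimum count 10) and scaled by TMM, and all 12 libraries entered a fit of group means with robust quasi-likelihood estimation (edgeR 4.0.16, limma 3.58.1, R 4.3.3). Benjamini-Hochberg adjustment ran over all 14297 tested genes. The standard error is the log2 fold change divided by the square root of F. DESeq2 1.42.0 was an alternative. The steps were tested on simulated data. Library values are given for members called in both comparisons and for the 6 largest called rises and falls per comparison above a mean log2 CPM of 1; others shown that way, such as ROBO1, NTN1, NTN4, were added after their values were seen. The lists of other pathway genes name up to 4 called genes by adjusted p, of which the text gives a part. Members and lists were chosen with earlier results of these data known. As no molecular identifiers are described, floors cover counting error only. Symbols were matched to RefSeq GRCh38.p14 for chromosomes, neighbouring genes and promoter windows only.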

Additional observations from a re-analysis of the deposited data

How the results depend on the processing

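The counts of called members stayed within 1.5 times of their values under DESeq2 size factors, library totals, the DESeq2 test, no filter, the replicate block, fits of 2 groups, exchanged controls and each left-out library. Without single libraries they ran from 31 to 34 for the MITF vector, 21 to 25 for MITF siRNA, 26 to 30 between the controls, 36 to 39 for the difference of responses and 16 to 20 for opposite calls, whose alternatives were chosen after seeing the data. The members in the order of MITF numbered 5 to 8 and in the reverse order 4 to 6. Same-numbered libraries of different groups correlated in their deviations from group means at -0.12 to 0.064 over genes. Differently numbered ones correlated at -0.085 to 0.091. No shared effect of replicate number was thus seen, which cannot show whether same-numbered cultures were handled together. With the replicate block 34, 24, 31 and 38 members were called in the comparisons in that order, and NRP1 between the controls lost its call (adjusted p = 0.0658). Over all tested genes the block gave 8408, 4960, 5394 and 8065 calls. DESeq2 left PLXNA3 with the MITF vector (adjusted p = 0.0749) and NTN3 with MITF siRNA (0.0592) uncalled. With library totals 19 members rose and 16 fell with the MITF vector, and 31 of the 33 calls of the main fit were kept. Under that scaling 8540 of all tested genes were called. Their median log2 change, over all tested genes, also lay higher, at 0.066 beside 0.0037 with TMM.

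With exchanged controls, 24 of the 33 members called for the MITF vector (29 called), 11 of the 24 for MITF siRNA (25 called) and 6 of the 17 opposite calls (12 called) were kept. Of all 14297 tested genes, 7231 were called for the MITF vector and 6103 for MITF siRNA with these controls, and 14.5% had opposite calls. Exchanging the controls changed the sign of 9 of 43 values of named members. For the MITF vector SEMA3D (0.53, adjusted p = 0.0168) was called with the new sign and PLXNA3 (-0.047, 0.699) was not. For MITF siRNA SEMA5A (0.55, adjusted p = 9.99e-07), EPHA2 (-0.61, 3.19e-07) and EFNB2 (-0.29, 0.00563) were called with the new sign. Not called there were PLXNC1 (0.11, adjusted p = 0.473), SEMA3C (-0.055, 0.414), SEMA3D (-0.17, 0.385) and PLXNA1 (0.10, 0.108). A further 6 lost their call in the same direction. For the MITF vector these were PLXNA2 (0.20, adjusted p = 0.251) and EPHA3 (0.031, adjusted p = 0.807). For MITF siRNA they were PLXNA2 (-0.25, adjusted p = 0.341), EPHA5 (-0.24, adjusted p = 0.299), SEMA6A (-0.0017, adjusted p = 0.991) and PLXNA3 (-0.0023, adjusted p = 0.989). MITF itself was higher with MITF siRNA than with the empty vector (log2 difference 0.18). Depth limits the Slits, most netrins, EPHA6 and EFNA2, which lie near or under a few CPM.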
